A study of Mus musculus with 5 samples.

Results

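The olfactory receptor clusters were taken as 4 windows of the mouse genome (build mm9) and divided into 1 kb bins: chromosome 2 from 85000001 to 90000000, chromosome 7 from 109600001 to 114200000, chromosome 9 from 38000001 to 40100000, and chromosome 17 from 37500001 to 38000000. A bin was a member if it held 1 or more reads of the input library, whatever the other libraries showed. Of 12200 bins in the windows, 10920 were members (4641 on chromosome 2, 3863 on chromosome 7, 1964 on chromosome 9 and 452 on chromosome 17), out of 2392560 such bins on chromosomes 1 to 19 and X. The 2 Mb on each side of every window served as flanks and held 15013 bins with input reads. Whether receptor genes also lie in the flanks was not checked. No mm9 gene models were used here, so the bins are described by position and no gene is assigned to a bin.

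The study profiled DNA modification in mouse embryonic stem cells, kept feeder-free with leukaemia inhibitory factor in serum medium, with 1 library per group and 5 libraries in all. Both antibody methods worked on denatured DNA with 2 µg of antibody, which recognised 5-methylcytosine (5mC) in MeDIP and 5-hydroxymethylcytosine (5hmC) in hMeDIP. MethylCap captured 1 µg of sonicated DNA with 2 µg of a GST-tagged methyl-CpG binding domain (MBD) protein, and the bound fragments were released with NaCl at 600 mM in one library and at 800 mM in the other. These 4 enriched libraries came from E14 gene-trap clones at passages 11 to 14, whereas the input came from TNG-A cells, an E14 derivative with a green fluorescent reporter at Nanog, so a difference between the lines and an enrichment cannot be told apart in a ratio to input. Libraries held between 7507520 and 18676265 reads on chromosomes 1 to 19 and X. With 1 library per group, no difference given here has a replicate check and no test between conditions was possible. Intervals in parentheses are 95% intervals that cover counting error alone: without molecular identifiers, several reads can stem from the same DNA molecule.

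Olfactory receptors are G protein-coupled receptors with which sensory neurons of the nose detect odorants. Their genes form the largest gene family of the mouse, lie in clusters on many chromosomes, and mostly have a single coding exon. Each olfactory neuron expresses 1 allele of 1 receptor gene, and in embryonic stem cells the genes are silent. The DNA of these clusters is rich in A and T and poor in CpG dinucleotides, the main site of 5mC in mammals. 5hmC is made from 5mC by the Tet dioxygenases. MBD proteins bind fragments with several methylated CpGs and bind 5hmC poorly, whereas the antibodies also reach single modified bases in denatured DNA.

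Sequences upstream of receptor genes are shown as background on their CpG content. The CpG content of the mm9 bins was not measured, and its part in the ratios was not tested. In the RefSeq annotation of another build, GRCm38.p6, used here only for names, gene order and upstream sequence, the longest run of olfactory receptor (Olfr) genes with at most 10 other protein-coding genes between neighbours held 293 Olfr genes on chromosome 2, 116 on chromosome 7, 127 on chromosome 9 and 58 on chromosome 17. Pseudogenes made up 71, 25, 32 and 12 of these. Other genes inside the chromosome 7 run included the beta-globin genes Hbb-bt, Hbb-bs, Hbb-bh2, Hbb-bh1 and Hbb-y, the ubiquitin ligase genes Trim21 and Trim68, the deubiquitinase genes Usp17ld and Usp17lc, and Olfm5. Inside the chromosome 17 run lay Ubd, a ubiquitin-like modifier, and the class I-like genes H2-M3 and H2-M2. For each run the printed receptor was the first by symbol among coding genes with a model longer than 3 kb whose upstream CpG count was nearest the median of the run, and the neighbours Agbl2 (beside the chromosome 2 run) and Pgap2 (beside the chromosome 7 run) were nearest the median of the 10 genes on either side. Each line gives the 250 bases before the annotated start, 5′ to 3′ on the strand of the gene (plus strand of GRCm38.p6, except Olfr976 on the minus strand), with every CG dinucleotide in capitals. Positions in that build are not given because the reads are in mm9.
Olfr1030: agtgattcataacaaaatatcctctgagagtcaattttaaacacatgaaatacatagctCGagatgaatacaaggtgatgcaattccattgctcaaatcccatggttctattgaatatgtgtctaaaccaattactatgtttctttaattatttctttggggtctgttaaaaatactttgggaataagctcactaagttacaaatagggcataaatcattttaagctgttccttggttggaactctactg
Olfr613: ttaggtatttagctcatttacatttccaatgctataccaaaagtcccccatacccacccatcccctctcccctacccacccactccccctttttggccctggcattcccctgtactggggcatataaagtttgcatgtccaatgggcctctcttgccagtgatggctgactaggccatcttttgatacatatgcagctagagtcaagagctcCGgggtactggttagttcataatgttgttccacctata
Olfr976: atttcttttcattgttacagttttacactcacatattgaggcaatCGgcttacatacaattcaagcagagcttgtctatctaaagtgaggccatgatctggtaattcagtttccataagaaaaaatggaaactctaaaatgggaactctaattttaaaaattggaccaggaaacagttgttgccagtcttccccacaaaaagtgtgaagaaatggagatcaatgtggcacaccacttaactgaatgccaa
Olfr119: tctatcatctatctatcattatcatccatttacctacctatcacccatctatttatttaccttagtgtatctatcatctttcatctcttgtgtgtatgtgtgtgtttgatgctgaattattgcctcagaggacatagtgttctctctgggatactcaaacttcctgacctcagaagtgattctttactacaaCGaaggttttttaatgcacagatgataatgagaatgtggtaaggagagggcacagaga
Agbl2: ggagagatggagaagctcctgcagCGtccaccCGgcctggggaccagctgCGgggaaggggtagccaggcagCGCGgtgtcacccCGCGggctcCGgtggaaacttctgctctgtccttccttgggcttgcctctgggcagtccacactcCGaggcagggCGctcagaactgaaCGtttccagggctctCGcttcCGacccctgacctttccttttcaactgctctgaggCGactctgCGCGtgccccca
Pgap2: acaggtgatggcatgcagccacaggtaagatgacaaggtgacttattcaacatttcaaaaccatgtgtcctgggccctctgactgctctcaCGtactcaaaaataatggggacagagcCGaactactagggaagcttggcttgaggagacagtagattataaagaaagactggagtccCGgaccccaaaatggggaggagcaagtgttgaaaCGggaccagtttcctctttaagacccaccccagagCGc

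Receptor genes had few CG dinucleotides upstream. The 4 printed receptor sequences each held 1 CG, against 16 for Agbl2, which encodes a carboxypeptidase that trims tubulin, and 5 for Pgap2, which acts in the maturation of GPI anchors. Over the RefSeq table, 948 Olfr sequences had a median of 1 CG and 44.2% held none, whereas the 31903 sequences of other genes had a median of 6 and 6.79% held none. By run, the median was 1 on all 4 chromosomes, from 187, 80, 80 and 35 sequences, and the share without a CG was 46.0% on chromosome 2, 40.0% on chromosome 7, 43.8% on chromosome 9 and 42.9% on chromosome 17. The neighbours had medians of 17, 4.5, 10 and 3 CG. Only 1 of the 948 Olfr sequences held 10 or more CG, against 38.9% of the others. A search for the letters CG on 1 strand covers both, since CG is its own reverse complement. Coding gene models whose length is a multiple of 3 made up 75.7% of Olfr models in the chromosome 2 run, 83.5% on chromosome 7, 75.8% on chromosome 9 and 69.6% on chromosome 17, so for many genes the annotated start may be the start of the coding sequence and not of transcription.

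**Figure D1:**
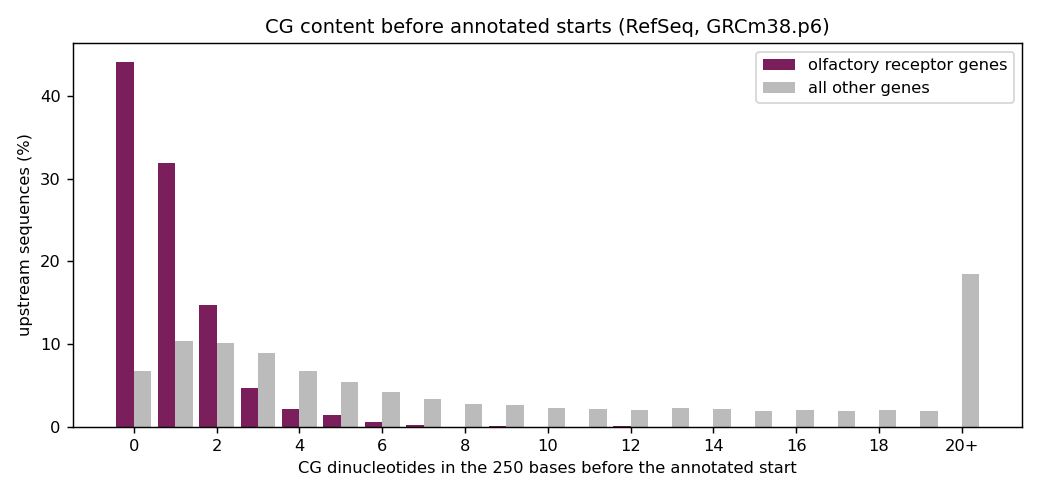
Share of upstream sequences (y axis, %) by number of CG dinucleotides in the 250 bases before the annotated start (x axis, 20 or more in the last class), for olfactory receptor genes and for all other genes of the RefSeq table. Receptor genes lie mostly at 0 to 3 CG, with a median of 1, and the other genes spread widely around a median of 6.

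All 4 enriched libraries were depleted over the receptor windows. RPM (reads per 1000000 reads on chromosomes 1 to 19 and X) summed over the member bins came to 0.345 of the input (0.340 to 0.351) for the 600 mM eluate, 0.343 (0.336 to 0.350) for the eluate at 800 mM, 0.541 (0.533 to 0.549) in MeDIP and 0.582 (0.575 to 0.589) in hMeDIP. Over the flanks the same ratios were 0.926, 0.933, 0.923 and 1.02. The windows thus stood at 0.373 of their flanks (0.366 to 0.381) by the 600 mM reads, at 0.368 (0.359 to 0.376) by the 800 mM reads, at 0.586 in MeDIP (0.576 to 0.596) and at 0.570 in hMeDIP (0.562 to 0.578). Whole chromosomes 2, 7, 9 and 17 lay between 1.01 and 1.23 in these libraries. By summed reads the depletion was deeper for MBD capture than for the 5mC antibody: MeDIP over the 600 mM eluate was 1.57 (1.54 to 1.61) in the windows when set against the flanks. That ratio was 1.90 on chromosome 2, 1.23 on chromosome 7, 1.55 on chromosome 9 and 2.43 on chromosome 17; without the segment of the chromosome 17 flank described below the last value was 1.43. The median of bin ratios was also taken, over bins with 5 or more input reads and with 0.5 RPM added to both sides. By it the windows stood at 0.812 of their flanks for 600 mM, 0.878 for 800 mM, 0.839 in MeDIP and 0.837 in hMeDIP. Both eluates had the same window median, 0.572, and the median count of a member bin was 0 in each. An empty bin keeps the added 0.5 RPM, so this measure cannot order MBD capture and antibody.

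The windows differed in depth of depletion. The chromosome 2 window was at 0.239 of input by 600 mM reads, 0.226 by 800 mM reads, 0.433 in MeDIP and 0.492 in hMeDIP. On chromosome 9 the values were 0.287, 0.269, 0.483 and 0.561, and on chromosome 17, the shortest window, 0.260, 0.287, 0.525 and 0.576. Least depleted was the chromosome 7 window, at 0.537, 0.556, 0.726 and 0.718. Its intervals did not overlap those of any other window in any of the 4 libraries. Input was also thinner there, at 5.64 reads per kb against 8.31 in its flanks, while the chromosome 9 window had 7.84 against 7.96; the part of input density in the ratios was not tested.

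**Figure D2:**
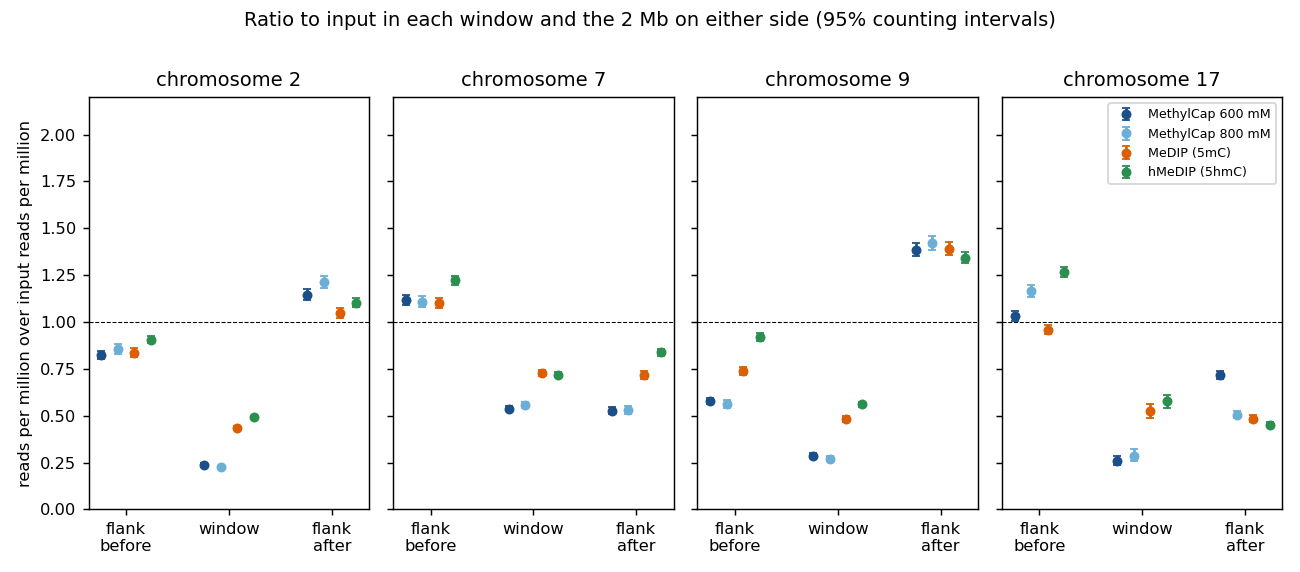
Ratio to input of summed RPM (y axis) in the 2 Mb flank before each window, the window, and the 2 Mb flank after it, for the 4 enriched libraries on 4 chromosomes; bars are 95% counting intervals. Window values run from 0.226 to 0.726, while the flank after the window on chromosomes 7 and 17 is itself low. The flank before the chromosome 9 window is also low at 600 mM (0.578), at 800 mM (0.563) and in MeDIP (0.740), less so in hMeDIP (0.921).

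The contrast with the flanks was not the same on both sides. The chromosome 2 and 9 windows were lower than either flank in every library, with window over flank between 0.186 and 0.653. The chromosome 7 window was lower than the flank before it (0.482, 0.502, 0.659 and 0.587 in the order 600 mM, 800 mM, MeDIP, hMeDIP), but against the flank after it the ratio was 1.02 (0.979 to 1.07) for 600 mM, 1.05 (1.00 to 1.10) for 800 mM and 1.01 (0.974 to 1.05) in MeDIP, and only hMeDIP was lower, at 0.857 (0.832 to 0.884). The chromosome 17 window was at 0.252, 0.246, 0.547 and 0.454 of the flank before it. Against the flank after it, the window stood at 0.362 for 600 mM and 0.567 for 800 mM. It stood at 1.08 (0.999 to 1.18) in MeDIP and at 1.28 (1.20 to 1.36) in hMeDIP. The hMeDIP ratio was thus higher in the window than in this flank. The segment from 39900001 to 40000000 held 64.3% of the 600 mM reads of that flank and 48.4% of the 800 mM reads. Without it the flank was at 0.301 of input for 600 mM and 0.308 for 800 mM, beside 0.260 and 0.287 in the window. MeDIP was then at 0.462 (0.443 to 0.481) in the flank, below the 0.525 (0.487 to 0.564) of the window, and hMeDIP at 0.465.

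**Figure D3:**
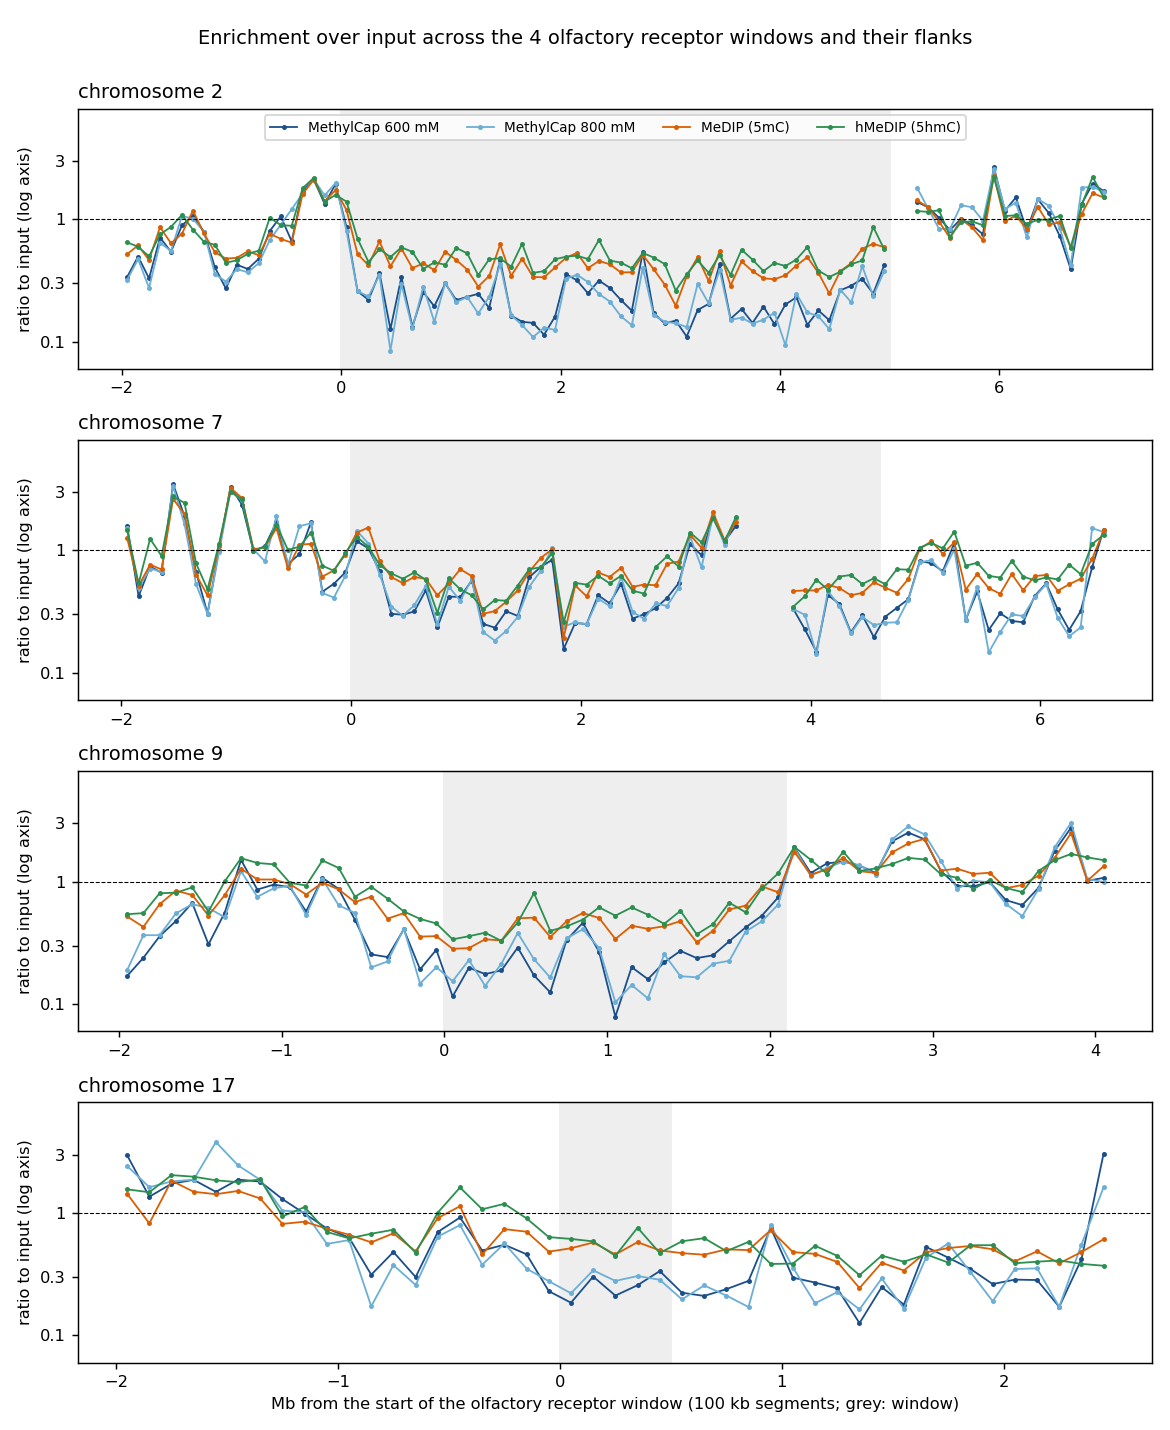
Ratio to input (y axis, log scale) in 100 kb segments with at least 50 bins that hold input reads, by distance from the start of each window (x axis, Mb), for the 4 enriched libraries; grey marks the window and the dashed line is the input level. Of the segments inside the windows, 84.7% lie below 0.5 at 600 mM, 85.6% at 800 mM, 55.9% in MeDIP and 50% in hMeDIP. A stretch mostly above 1 lies about 3 Mb into the chromosome 7 window.

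Within the windows, most of the DNA was low and the exceptions were few. Of 118 segments of 100 kb, 107 lay below the genome median for each MethylCap library, and 104 did so in MeDIP and in hMeDIP. A ratio below 0.5 in all 4 libraries was found in 49 of the 118 segments (41.5%), against 9.49% of flank segments and 18.3% of all segments on chromosomes 1 to 19 and X. The lowest segment of the windows in the 600 mM eluate was at 39000001 to 39100000 on chromosome 9, with 34 reads at 600 mM, 32 at 800 mM, 146 in MeDIP, 402 in hMeDIP and 768 in the input, a ratio of 0.079 (0.054 to 0.111) in the 600 mM eluate. The lowest MeDIP and hMeDIP segment was at 111400001 to 111500000 on chromosome 7, at 0.193 (0.138 to 0.265) and 0.258 (0.206 to 0.322). Only 6 segments (5.08%) reached the input level in all 4 libraries, against 25.3% of flank segments and 31.2% of all segments, and all 6 were on chromosome 7. Of these, 2 adjoined at the window start (109600001 to 109800000) and the other 4 lay between 112500001 and 113000000. The highest of them by the eluates and MeDIP, 112700001 to 112800000, reached 1.88 (1.69 to 2.10) for 600 mM, 1.92 (1.70 to 2.16) for 800 mM, 2.05 (1.84 to 2.28) in MeDIP and 1.83 in hMeDIP. The other 36 chromosome 7 segments had medians of 0.325, 0.349, 0.532 and 0.576. The next 4 segments, from 113000001 to 113400000, had only 7 to 22 bins with input reads each and were left out of the profile.

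The window edges were unlike each other. At the start of the chromosome 2 window the 600 mM ratio went from 1.93 in the last 100 kb outside to 0.856 and 0.258 in the first 2 segments inside. The chromosome 9 window started in DNA that was already low, with 0.278 outside and 0.116 inside, and at the start of the chromosome 7 window the ratio was higher inside (1.19) than outside (0.662). Pooled over both edges of the chromosome 2, 7 and 9 windows, the 100 kb just outside was at 1.04, 1.01, 1.08 and 1.13 of input (600 mM, 800 mM, MeDIP, hMeDIP), and the 100 kb beyond that at 0.696, 0.658, 0.790 and 0.927. The first 100 kb inside was at 0.617, 0.638, 0.825 and 0.935, and the 100 kb that starts 500 kb inside was at 0.226, 0.215, 0.436 and 0.538. The outermost chromosome 2 segment, 85000001 to 85100000, kept 0.856 of input in the 600 mM eluate but stood at 1.19 in MeDIP and 1.39 in hMeDIP.

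At the scale of single bins, the windows had many empty bins and few enriched ones. No 600 mM read fell in 56.9% of member bins (56.0 to 57.8), against 30.0% in the flanks and 32.7% over chromosomes 1 to 19 and X. In the 800 mM eluate 63.9% of member bins were empty, against 40.7% and 42.6%. For MeDIP the shares were 31.6%, 17.7% and 18.9%, and for hMeDIP 17.5%, 7.54% and 9.56%. Libraries differ in depth, so these shares compare regions within a library and not libraries with each other. Input was thinner in the windows, at 7.41 reads per member bin against 8.43 in the flanks and 7.81 over chromosomes 1 to 19 and X. The part of input depth in the shares of empty and enriched bins was not tested. A bin was counted as enriched where (RPM + 0.5)/(input RPM + 0.5) was 3 or more. The member bins held 75 such bins at 600 mM (0.687%, against 2.70% of flank bins and 3.3% of all bins), 109 at 800 mM (0.998%, against 3.70% and 4.27%), 81 in MeDIP (0.742%, against 2.22% and 2.48%) and 71 in hMeDIP (0.650%, against 1.98% and 1.93%). The chromosome 7 window held 56, 79, 55 and 40 of them, and without it the counts were 19, 30, 26 and 31. Its shares were 1.45%, 2.05%, 1.42% and 1.04% of its bins, against 2.68%, 3.44%, 2.42% and 2.50% in its flanks. In the flank after it alone they were 0.968%, 1.40%, 1.02% and 0.914%. Shares in the other windows ran from 0.172% to 0.764%. Only 8 member bins (0.0733%) were enriched in all 4 libraries, against 0.273% of flank bins and 0.326% of all bins, and 7 of the 8 were on chromosome 7. All 4 ratios lay below 1 in 61.97% of member bins, against 42.6% of flank bins and 43.6% of all bins.

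**Figure D4:**
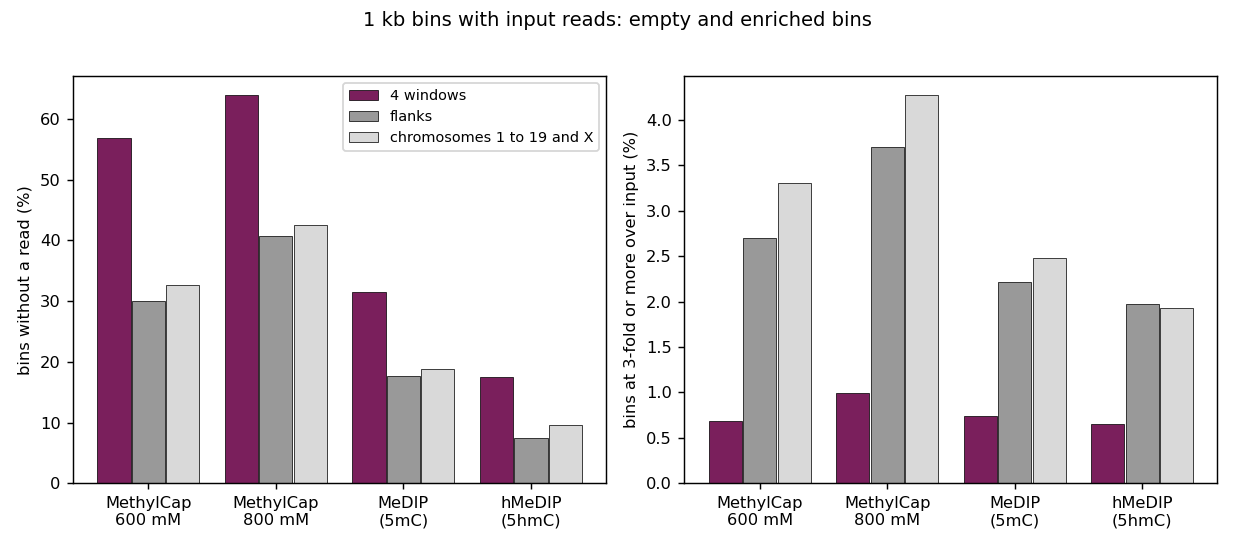
Share of 1 kb bins (y axis, %) without a read (left) and at 3-fold or more over input (right) in each enriched library, for the 4 windows, their flanks and chromosomes 1 to 19 and X. Empty bins are more frequent in the windows in each library (56.9% against 30.0% in the flanks for the 600 mM eluate), and enriched bins are rarer (0.687% against 2.70%).

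The 2 antibodies were close to each other over the windows as a whole and apart at the bins that MBD captured best. Summed over member bins, hMeDIP over MeDIP was 1.08 in the windows and 1.11 in the flanks, a ratio of 0.973 (0.955 to 0.990) that had no common direction: it was 1.07 on chromosome 2, 0.875 on chromosome 7, 1.09 on chromosome 9 and 0.916 on chromosome 17, and 1.04 (1.02 to 1.06) without the chromosome 7 window. With bins sorted by their 600 mM reads, hMeDIP over MeDIP in the windows was 1.29 at 0 reads, 1.19 at 1 to 2, 1.09 at 3 to 5, 0.765 at 6 to 10, 0.562 at 11 to 20 and 0.517 at 21 or more. In the flanks the series was 1.37, 1.32, 1.21, 1.07, 0.931 and 0.750, and over chromosomes 1 to 19 and X it was 1.25, 1.19, 1.09, 0.986, 0.859 and 0.731. All 3 sets fell with MBD capture, and the windows left the genome-wide course from 6 reads on. This sorting was looked at further because of what the values showed.

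Bins with 11 or more 600 mM reads numbered 284 in the windows (2.60% of member bins, against 11.4% of flank bins). They held 3591 MeDIP reads, 3482 hMeDIP reads and 1736 input reads, which put MeDIP at 3.70 of input (3.49 to 3.92) and hMeDIP at 2.02 (1.91 to 2.14). The 1715 such bins of the flanks were at 2.69 and 2.32, and those of chromosomes 1 to 19 and X at 2.99 and 2.41. The higher MeDIP value rested on the chromosome 7 window, at 4.48 against 3.22 in its flanks; on chromosome 2 MeDIP was 2.31 against 2.64 and on chromosome 9 it was 2.85 against 2.88. Without chromosome 7, MeDIP stood at 2.58 (2.35 to 2.84) in the windows and 2.55 in the flanks, while hMeDIP stood at 1.47 (1.34 to 1.62) and 2.18. hMeDIP over MeDIP was 0.547 (0.522 to 0.573) in the windows and 0.863 (0.848 to 0.877) in the flanks, a ratio of 0.634 (0.603 to 0.666), with medians over bins of 0.673 and 0.870. It lay below 1 in 215 of the 284 bins (75.7%), against 61.5% of flank bins and 63.8% genome-wide. By window it was 0.502 (0.436 to 0.578) in 57 bins on chromosome 2 against 0.864 in the flanks, 0.537 (0.508 to 0.568) in 176 bins on chromosome 7 against 0.884, 0.611 (0.542 to 0.689) in 44 bins on chromosome 9 against 0.784, and 0.671 (0.492 to 0.917) in 7 bins on chromosome 17 against 0.952. The flank after the chromosome 17 window went the other way, at 0.420 (0.378 to 0.466) in 42 bins that averaged 38.7 input reads, against 7.71 in the window. Bins of the 4 windows averaged 6.11 input reads and those of the flanks 8.54; the part of input depth in this result was not tested. At 21 or more 600 mM reads the chromosome 9 window stood at 1.08 of its flanks (0.865 to 1.35), and with bins chosen by 11 or more 800 mM reads the chromosome 17 window stood at 1.00 (0.691 to 1.45).

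**Figure D5:**
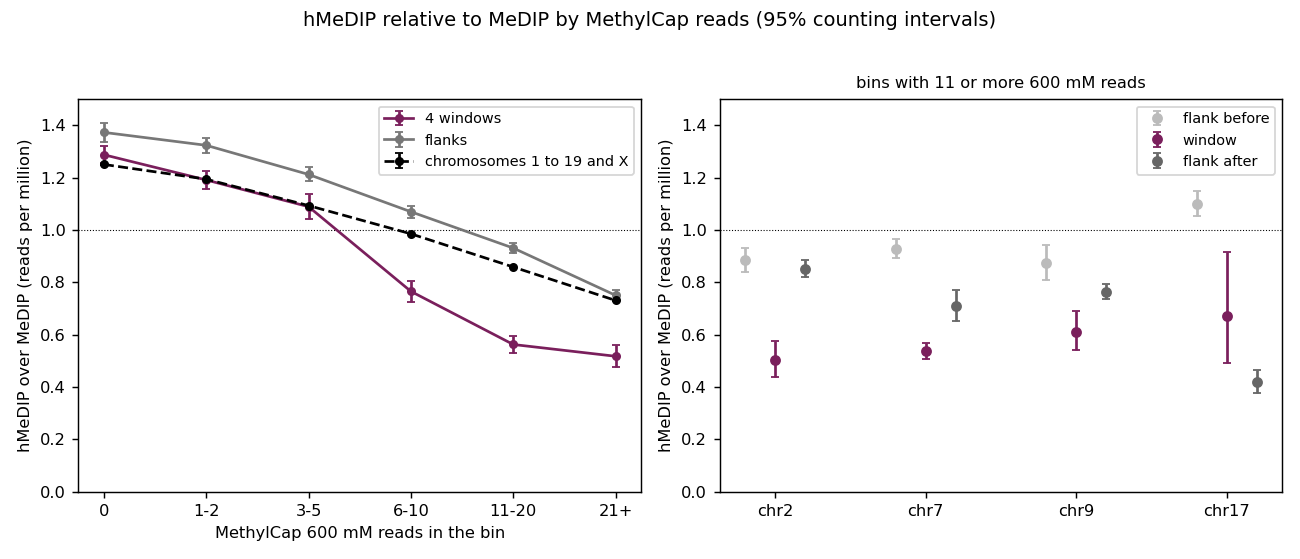
hMeDIP over MeDIP, each in RPM (y axis), by number of MethylCap 600 mM reads in the 1 kb bin (left), and in bins with 11 or more such reads for each window and its flanks (right); bars are 95% counting intervals. The windows fall to 0.517 at 21 or more reads, against 0.750 in the flanks, and each window lies below both of its flanks except on chromosome 17.

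The 2 eluates differed little over the windows as a whole. The 800 mM eluate over the 600 mM eluate was 0.993 in the windows and 1.01 in the flanks, a ratio of 0.985 (0.959 to 1.01). By window it was 0.899 (0.855 to 0.945) on chromosome 2, 1.04 (0.996 to 1.08) on chromosome 7, 0.929 (0.871 to 0.991) on chromosome 9 and 1.14 (0.997 to 1.31) on chromosome 17, so the intervals lay below 1 on chromosomes 2 and 9 and spanned it on the other two. Without the dense segment of its flank the chromosome 17 value was 0.996 (0.866 to 1.14).

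Single bins stood out against the low surroundings. They are extremes by choice: each was named for its rank in the value given. Bins ranked by a ratio to input had a minimum of 5 reads in the input and 20 in the library. Bins ranked by a difference between antibodies or eluates had a minimum of 20 reads in the higher library and no further input minimum. The folds over input of all named bins include the 0.5 RPM added to both sides, which pulls them toward 1. The highest 600 mM bin, at 38881001 to 38882000 on chromosome 9, held 68 reads of the 600 mM eluate, 31 of the 800 mM one, 34 in MeDIP and 2 in hMeDIP, with 6 in the input. Its folds over input were 8.52, 5.64, 4.57 and 0.740, so MBD and the 5mC antibody were high where the 5hmC antibody was not. Without the added 0.5 RPM the hMeDIP ratio to input was 0.336 (0.033 to 1.88), an interval that spans the input level. The bin at 109727001 to 109728000 on chromosome 7 had the highest MeDIP fold, 8.67, from 74 MeDIP reads, with 44 at 600 mM, 43 at 800 mM, 28 in hMeDIP and 7 in the input. Also high in both eluates was the bin 112903001 to 112904000 on chromosome 7, where the counts were 39 for 600 mM, 36 for 800 mM, 15 for MeDIP, 25 in hMeDIP and 5 in the input.

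The bins highest in hMeDIP differed in MBD capture. The highest, at 85038001 to 85039000 near the start of the chromosome 2 window, held 67 hMeDIP reads (5.01-fold), 29 in MeDIP, 9 at 600 mM (1.66-fold), 15 at 800 mM (3.04-fold) and 6 in the input, so it was also enriched in the 800 mM eluate. The bin at 85062001 to 85063000 held 94 hMeDIP reads (4.88-fold), 42 in MeDIP, 10 at 600 mM, 7 at 800 mM and 12 in the input. Near the far end of the same window, 89801001 to 89802000 held 59 hMeDIP reads (4.49-fold), 11 in MeDIP and 6 in the input, and no read of either eluate. With 3 reads put in place of 0, its RPM in hMeDIP was 11.1-fold that in the 600 mM eluate. The exact interval was taken from the counts themselves, 59 against 0, and had its lower end at 8.76-fold. A similar bin on chromosome 9, 39069001 to 39070000, held 56 hMeDIP reads, 6 in MeDIP, 7 in the input and none of either eluate. With 0.5 RPM added to both sides, the largest hMeDIP over MeDIP ratio was at 113696001 to 113697000 on chromosome 7. This bin held 24 hMeDIP reads, none in MeDIP, 1 at 600 mM and 5 in the input. With 3 MeDIP reads put in place of 0, hMeDIP was 4.51-fold MeDIP. The lower end of the exact interval, from 24 against 0 reads, was 3.39-fold. On chromosome 17 the highest hMeDIP fold among bins with 5 or more input reads was 2.69, from 29 reads at 37984001 to 37985000; the 1 bin of that window counted above as enriched in hMeDIP had fewer input reads.

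The bin with the largest difference between the eluates was named in each direction, and the eluates also differed at other bins. In the windows 56 bins were enriched in both eluates, of 75 at 600 mM and 109 at 800 mM. In the flanks 277 were, of 405 and 556, and over all bins 55230, of 79074 and 102129. On chromosome 7, 109617001 to 109618000 held 84 reads of the 800 mM eluate but 8 of the 600 mM one, 13 in MeDIP, 26 in hMeDIP and 18 in the input, for folds over input of 7.99 and 0.864 in the 2 eluates. In the other direction, 39694001 to 39695000 on chromosome 9 held 28 reads of the 600 mM eluate but 2 of the 800 mM one, 1 in MeDIP, none in hMeDIP and 11 in the input. Each is a single bin in 1 library per eluate.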

How the data were processed

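DNA of mouse embryonic stem cells was profiled in 5 libraries, 1 per group. Each line of the deposited files is 1 aligned read of 35 bp with a read count of 1. Per the submitters' processing notes, the aligner was BWA 0.5.8 and the genome build mm9. A further deposited column (another value, 0 or 1, of a meaning not given in the sources used here) was 1 for 7.42% of input reads in the windows and 8.80% in the flanks, and never 1 in MeDIP or hMeDIP. All reads were kept, assigned by midpoint to 1 kb bins and scaled to RPM, reads per 1000000 reads on chromosomes 1 to 19 and X. Ratios are of summed reads, with exact (Clopper-Pearson) 95% intervals. For a window over its flanks a log-normal (Woolf) interval was used where an exact one had been planned, since the exact one took too long to compute. Named bins were, per window and library, the highest ratio to input, the top 3 per library, and the largest difference between antibodies and between eluates. The highest and lowest 100 kb segments were named likewise. The regions, lists and rules were chosen with earlier results of these data known. Code was tested on simulated data (Python 3 with numpy, pandas and scipy). Alternatives were the dropping of reads by the unexplained column, other input minimums, flanks, bins, thresholds, pseudocounts and scalings, and windows left out.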

Additional observations from a re-analysis of the deposited data

Results flagged for a closer look

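The 1280 bins of the windows without an input read belong to no comparison above, yet some held reads of the enriched libraries, beyond the 3 reads that a count of 0 allows. Bins with 4 or more reads numbered 39 at 600 mM salt, 32 at 800 mM, 42 in MeDIP and 45 in hMeDIP, or 3.05%, 2.5%, 3.28% and 3.52% of them. Over chromosomes 1 to 19 and X the shares of such bins were 2.86%, 2.07%, 2.66% and 3.27%, close to those of the windows. The flanks, with 987 bins without an input read, had 51, 41, 41 and 47 (5.17%, 4.15%, 4.15% and 4.76%). Reads in these bins made up 3.70%, 3.47%, 2.17% and 1.26% of each library's reads in the windows, against 1.43%, 1.14%, 0.903% and 0.613% in the flanks. By count the windows held fewer such reads: 601, 401, 542 and 595, against 950, 546, 595 and 790 in the flanks. The fullest of these window bins by 600 mM reads, 110249001 to 110250000 on chromosome 7, held 47 reads at 600 mM, 15 at 800 mM, 14 in MeDIP and 1 in hMeDIP. On chromosome 2, 86339001 to 86340000 held 20, 20, 24 and 8. The fullest by hMeDIP, 110773001 to 110774000 on chromosome 7, held 27 hMeDIP reads, 7 in MeDIP, 1 at 600 mM and none at 800 mM.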

How the results depend on the processing

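The windows stayed below their flanks in all 4 libraries under every alternative run; values below are in the order 600 mM, 800 mM, MeDIP, hMeDIP unless named. Without reads that carry a 1 in the unexplained column, the window over flank ratio was 0.381 at 600 mM and 0.562 in hMeDIP, MeDIP over 600 mM was 1.52, and bins without a read were 58.4% and 65.3% in the eluates. With 5 or more input reads per bin, the ratios were 0.321, 0.316, 0.546 and 0.526, MeDIP over 600 mM was 1.70, MeDIP and hMeDIP had 30.1% and 14.7% of bins without a read, and 26, 41, 36 and 31 bins were enriched. With flanks of 1 Mb the ratios were 0.408, 0.400, 0.598 and 0.579 and MeDIP over 600 mM was 1.46; with 4 Mb they were 0.312, 0.307, 0.503 and 0.511, and 1.61. The median of bin ratios, with 0.5 RPM added, gave 0.812, 0.878, 0.839 and 0.837. In the eluates these values depend on the 0.5 RPM kept by empty bins. The pooled hMeDIP over MeDIP ratio against the flanks reversed from 0.973 to 1.02 with flanks of 4 Mb and to 1.04 without the chromosome 7 window; the cause was not tested.

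The number of enriched bins moved with every rule that sets it: 298, 319, 330 and 371 with a pseudocount of 0.1 RPM, 30, 43, 25 and 15 with 1 RPM, 16, 30, 15 and 4 at 5-fold, 255, 276, 253 and 294 at 2-fold, and 498, 644, 306 and 327 with libraries scaled to their median bin ratio. In bins of 2 kb, 69, 50 and 45 were enriched at 800 mM, in MeDIP and in hMeDIP. Each of these counts is of window bins alone. Flank bins and all bins were not counted under these rules, nor under the minimum of 5 input reads. The counts therefore do not show whether enriched bins stayed rarer in the windows than elsewhere.

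The following alternatives were chosen after seeing the data, as were all those of the MBD-rich bins and of MeDIP over 600 mM. Without the chromosome 7 window the window over flank ratios were 0.267, 0.251, 0.492 and 0.512, 800 mM over 600 mM was 0.940, MeDIP over 600 mM was 1.84, bins without a read were 60.0%, 66.8% and 32.5% in the eluates and MeDIP, and 19, 30, 26 and 31 bins were enriched. Without chromosome 17, MeDIP was at 0.554, hMeDIP at 0.548 and MeDIP over 600 mM at 1.49. Without the densest segment of the chromosome 17 flank, the 600 mM ratio was 0.388 and MeDIP over 600 mM 1.50. hMeDIP over MeDIP in MBD-rich bins relative to flanks, 0.634, was 0.603 with 5 or more input reads, 0.667 without chromosome 7, 0.677 at 6 or more and 0.690 at 21 or more 600 mM reads, and 0.683 at 11 or more 800 mM reads. By window it reversed on chromosome 9 at 21 or more 600 mM reads (1.08) and on chromosome 17 at 11 or more 800 mM reads (1.00), both with intervals that span 1, and the chromosome 17 window had no value at 21 or more. Counting each position and strand once left all pooled values as they were, within counting error. Only values that use an eluate could change. The eluates held 115301 (600 mM) and 99711 (800 mM) reads at a repeated position and strand, and MeDIP, hMeDIP and the input held none. Depth limits single bins most: the median 600 mM count of a member bin was 0.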
